A study of Mus musculus with 2 samples.

Results

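CD8 T cells that carried transcripts of both Cdc20 and Ccnb2, a pair of genes used as markers of the G2 and M phases of the cell cycle, were described in a single-cell RNA-seq library from the spleens of tacrolimus-treated transplant recipients. The members were chosen from measured values: a cell had to have at least 200 genes with a UMI (unique molecular identifier, 1 counted transcript), at least 1 UMI each of Cd8b1, Cdc20 and Ccnb2, and 0 UMIs of Cd4. Of the 3239 cells in the files, 1688 came from the tacrolimus library, 1475 of these passed the minimum of genes, 1001 were CD8 cells by this rule, and 634 were members. Spleen and bone marrow cells of WT C57BL/6 mice had been injected into lethally irradiated WT BALB/C recipients, a model of allogeneic haematopoietic cell transplantation (HCT). Recipients received tacrolimus, an inhibitor of the phosphatase calcineurin that signals from the T-cell receptor to NFAT, from day 0 to day 6, and spleen cells were isolated on day 6. The series' other library came from recipients given an antibody against IL-2. Its deposited values had been batch-integrated and were not used as levels, so no value here compares the treatments. There was 1 library per treatment. The labels do not say how many mice it held, and the cells of 1 library are not replicates, so differences between them could not be checked over replicates and no p-value is given.

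Entry into mitosis is driven by the kinase Cdk1 bound to cyclins A and B, of which Ccnb2 encodes cyclin B2. Exit from mitosis requires the anaphase-promoting complex (APC/C), a ubiquitin ligase that Cdc20 activates once chromosomes are attached to the spindle and that degrades cyclin B and securin. Transcripts of both genes accumulate from late S phase and peak in G2 and M, together with a large set of spindle, kinetochore and chromosome condensation genes. Many of these share promoter elements called CHR and CCAAT box, through which the MuvB complex and the factor NF-Y act. In allogeneic transplantation, donor CD8 T cells that meet host antigen divide rapidly in the recipient's spleen while acquiring granzymes and perforin.

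The promoters of 6 mitotic genes are shown first, to display letters that the rule did not use. Each line gives the 120 bases before the transcription start in RefSeq (GRCm38.p6), with CHR (TTTGAA or TTCGAA, on either strand) and CCAAT (on either strand, ATTGG in reverse) in capitals. The 6 genes are those mitotic genes with the highest ratio of members over other CD8 cells that hold a CHR in this stretch. The shared CHR was thus fixed by the choice of genes. Cenpf, Hmmr and Aurka, with higher ratios than Ube2c, were passed over because they held no CHR in this stretch.
Cdc20, activator of the APC/C and a gene of the rule, chr4:118437344-118437463, minus strand: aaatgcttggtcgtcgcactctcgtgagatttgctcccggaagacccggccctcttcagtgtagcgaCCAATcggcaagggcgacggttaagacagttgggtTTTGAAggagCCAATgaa
Ube2c, the ubiquitin-conjugating enzyme of the APC/C, chr2:164769809-164769928, plus strand: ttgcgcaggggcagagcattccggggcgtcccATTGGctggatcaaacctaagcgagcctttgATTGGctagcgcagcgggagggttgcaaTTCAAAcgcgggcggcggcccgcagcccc
Ckap2, a spindle-associated protein, chr8:22185820-22185939, minus strand: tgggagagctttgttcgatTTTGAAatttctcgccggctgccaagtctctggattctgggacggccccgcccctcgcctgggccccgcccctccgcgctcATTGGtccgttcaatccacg
Kpna2, an importin alpha, chr11:106999526-106999645, minus strand: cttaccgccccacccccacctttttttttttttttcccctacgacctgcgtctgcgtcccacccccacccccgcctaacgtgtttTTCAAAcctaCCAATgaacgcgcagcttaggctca
Kif2c, a microtubule depolymerase of the centromere, chr4:117178773-117178892, minus strand: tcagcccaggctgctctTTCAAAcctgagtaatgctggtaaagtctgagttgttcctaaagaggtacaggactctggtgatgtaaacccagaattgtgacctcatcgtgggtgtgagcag
Ckap5, a microtubule polymerase, chr2:91526642-91526761, plus strand: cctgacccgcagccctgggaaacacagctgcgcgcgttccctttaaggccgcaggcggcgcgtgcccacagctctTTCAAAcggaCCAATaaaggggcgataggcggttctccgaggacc
In Cdc20, Kpna2 and Ckap5 a CCAAT box followed the CHR with 4 bases between them, while Kif2c held no CCAAT box in this stretch.

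The members made up 63.3% of the library's CD8 cells (95% exact binomial interval 60.3 to 66.3%, 634 of 1001 cells). Intervals here cover counting error only. The rule needs a UMI to be seen, and depth differed: members had a median of 16149.5 UMIs per cell (quartiles 12287 and 22510.5) and 460.5 of the 2000 deposited genes, against 10397 UMIs and 339 genes in the 367 other CD8 cells. When every cell was thinned at random to 6000 UMIs before the rule, 416 of 962 cells passed, or 43.2% (40.1 to 46.4%). CD4 cells of the same library, which had a UMI of Cd4 and none of Cd8b1, passed the Cdc20 and Ccnb2 rule in 135 of 294 cells (45.9%), and in 94 of 282 (33.3%, 27.9 to 39.2%) at 6000 UMIs. These intervals count cells of 1 library, so the difference between CD8 and CD4 cells was not tested. Cd8b1 and Cd4 were read before thinning. At 6000 UMIs Cd8b1 was seen in 98.7% of members, and Cd4 in 77.4% of the CD4 cells that passed. A further 93 cells had both Cd4 and Cd8b1 and 87 had neither, and these stayed out of all comparisons. Of the 93 cells, 58.1% had a UMI of Cdc20 and 34.4% of Cd8a. How counting them would change the shares was not tested.

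The values that chose the members are given as a description. Cdc20 (chromosome 4, 118432901 to 118437352, mm10) had a median of 4 UMIs per member, quartiles 2 and 7 and a maximum of 20, and 117 members passed on 1 UMI of it. Ccnb2 (chromosome 9, 70407692 to 70421547) had a median of 7, quartiles 4 and 10 and a maximum of 28, and 28 members passed on 1 UMI. Just inside the threshold, 16 members had 1 UMI of each gene, and the 14 of these with 6000 UMIs or more held a median of 42 mitotic genes. They also held a median of 23.5 genes of DNA replication, against 15 in all members. Just outside the threshold, 206 CD8 cells had Ccnb2 but no Cdc20, with medians of 26 mitotic and 18 replication genes at the same depth. Only 24 CD8 cells had Cdc20 without Ccnb2. Cd8a, the other chain of the CD8 receptor, was found in 94.6% of members and in 0 of 294 CD4 cells, a count that leaves room for a share of at most 1.02%. Genes of the CD3 chains were not among those measured here.

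Aurka encodes Aurora A, the kinase of centrosome maturation and spindle assembly, and was a marker of the label but not of the rule. It had a UMI in 404 of 634 members (63.7%), in 17.7% of other CD8 cells that were dividing and in 0.709% of CD8 cells that were not. Dividing here means at least 1 UMI of Mki67 or Top2a, which 226 of the other CD8 cells had and 141 did not. Their median depths were 12451.5 UMIs in dividing and 8775 in non-dividing cells. At 6000 UMIs the Aurka shares were 36.3%, 7.18% and 0 of 130 cells (at most 2.31%). The 230 members without Aurka were shallower (median 13682.5 UMIs against 17715 in those with it) and held a median of 38 mitotic genes at 6000 UMIs against 52.

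Counted over 5 gene lists of mitosis (82 measured genes without Cdc20, Ccnb2, Mki67 and Top2a), members held a median of 49 mitotic genes among 6000 UMIs (quartiles 39 and 55.5). Other dividing CD8 cells held 29 and non-dividing CD8 cells 13. The classes overlapped: 24.4% of the other dividing cells reached the members' lower quartile, while 0 of 130 non-dividing cells did. S-phase genes went differently. Of 36 measured genes of DNA replication, members held a median of 15, other dividing CD8 cells 20 and non-dividing cells 4. The summed level of these genes was 47.9 UMIs per 10000 in members and 47.9 in all other CD8 cells together. The label G2/M thus held for the mitotic genes, but the rule also took in cells with transcripts of DNA replication, and the members are called Cdc20+ Ccnb2+ CD8 cells here.

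**Figure D1:**
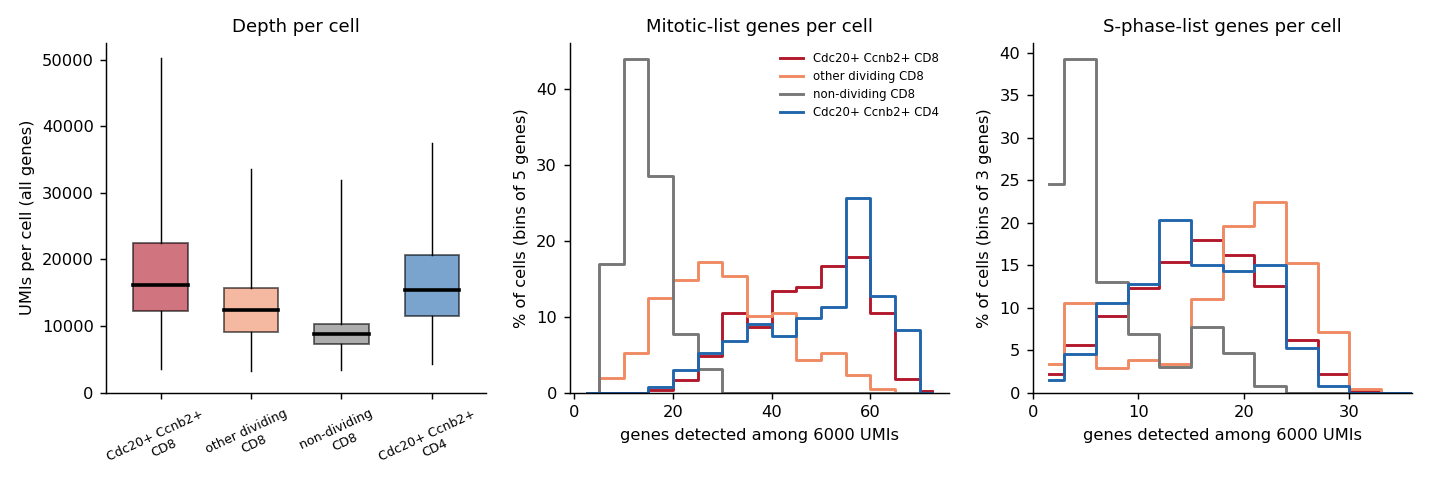
Left, UMIs per cell in 4 classes of tacrolimus cells (box, quartiles; line, median; whiskers, lowest and highest cell). Middle and right, the share of cells by number of mitotic-list and S-phase-list genes detected among 6000 UMIs. Cdc20+ Ccnb2+ CD8 cells had a median of 49 mitotic genes against 29 in other dividing CD8 cells, whereas their median of 15 S-phase genes lay below the 20 of those cells.

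Against all other CD8 cells, the members' leading genes were those of the spindle, the kinetochore and the APC/C, mostly 4-fold to 8-fold higher. Levels are UMIs per 10000 UMIs of the class, and a gene counted as higher or lower at 1.5-fold or more if at least 5% of cells of either class had a UMI of it at 6000 UMIs. Of 804 genes at that minimum, 166 were higher in members (20.6%) and 68 lower (8.46%), and these counts include genes of the rule. The rule split the same cells, so the counts describe the split and test nothing. Of the called genes 70.9% were higher. That share was 58.1% when 280 members were paired with 280 other CD8 cells of equal depth (140 higher, or 17.5%, and 101 lower, or 12.6%), and 55.1% under scaling by the median of ratios, which moved the median log2 ratio of all genes from 0.17 to 0. Of the 82 mitotic genes 77 were higher, 0 lower and 5 neither, with a median log2 ratio of 1.504 and a range from 0.43 to 3.04. At equal depth 78 were higher and the median was 1.58. The 5 were Pbk, Fbxo5, Stmn1, Hmgn2 and H2afz.

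Among the mitotic cyclins and kinases without Ccnb2, 12 of 13 genes were higher, with a median log2 ratio of 1.73. Ccnb1, cyclin B1, stood at 1.93 UMIs per 10000 in members, 0.47 in other dividing and 0.07 in non-dividing CD8 cells. Its ratio over all other CD8 cells was 5.63 (95% exact Poisson interval 4.76 to 6.71). Aurka had a ratio of 5.99 (4.61 to 7.91). Plk1, the polo-like kinase of mitotic entry and spindle assembly, had 2.15 UMIs per 10000 in members against 0.43 in other CD8 cells, and was found at 6000 UMIs in 66.6% of members and 12.7% of other CD8 cells. Nek2, a kinase of centrosome separation, was 5.12-fold higher. The level of Ccna2, cyclin A2, which acts from S phase on, was 4.25 UMIs per 10000 in members, 1.76 in other dividing and 0.21 in non-dividing cells. For Cdk1 these levels were 2.70, 1.19 and 0.07. Ccnb1, Ccna2 and Cdk1 thus had their highest levels in the members and their lowest in non-dividing cells. Cycle genes had set these classes, so the order is a description.

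Of the genes of the spindle checkpoint, the APC/C and cohesin release without Cdc20, 9 of 10 were higher. Ube2c had 10.2 UMIs per 10000 in members against 1.72 in other CD8 cells, a ratio of 5.92 (5.49 to 6.39). It was found in 89.7% of members and in 47.8% of other CD8 cells at 6000 UMIs, so that it did not separate the classes by presence. Sgol2a, shugoshin, which guards centromeric cohesion, was 5.66-fold higher, and Fam64a 5.32-fold. Bub1b, the checkpoint kinase BUBR1, had 0.88 UMIs per 10000 in members and 0.26 in other CD8 cells. Fzr1 encodes Cdh1, the activator that takes over the APC/C from Cdc20 late in mitosis, and stood at 1.28 and 0.41. Fbxo5, the inhibitor of the APC/C in S and G2 known as EMI1, was the exception: 1.17 in members, 0.86 in all other CD8 cells and 1.23 in those that were dividing.

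All 15 kinetochore and centromere genes were higher, with a median log2 ratio of 1.51. Cenpf, a kinetochore protein of G2 and M, had the highest ratio of any gene outside the rule: 2.22 UMIs per 10000 in members against 0.27, or 8.23-fold (6.82 to 10.0). It was found at 6000 UMIs in 59.4% of members, 13.9% of other dividing and 1.54% of non-dividing CD8 cells. Cenpe, the kinesin that moves chromosomes to the metaphase plate, was 4.35-fold higher. Casc5, the kinetochore scaffold KNL1, was 3.83-fold higher.

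Of 31 genes of spindle motors, tubulins and cytokinesis 30 were higher. Hmmr, a spindle-pole protein, was 6.14-fold higher (4.94 to 7.73) and Ckap2 5.48-fold. Kpna2 was 4.42-fold and Kif2c 4.22-fold higher. Tuba1c, an alpha tubulin, stood at 6.24 UMIs per 10000 in members, 1.95 in other dividing and 0.67 in non-dividing cells. Outside the lists, Aspm, a spindle-pole protein, was 7.12-fold higher (5.22 to 9.96), the helicase gene Pif1 6.13-fold and Parpbp 5.76-fold.

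The genes of chromosome condensation and mitotic chromatin differed less. Of 15, 13 were higher, with a median log2 ratio of 0.89. Top2a, the topoisomerase that untangles sister chromatids, was 2.33-fold higher and Mki67, the coat protein of mitotic chromosomes, 2.63-fold. H2afx, the histone variant that marks broken DNA when phosphorylated, was 3.15-fold higher. The condensin genes Smc4 and Ncapg were 2.38-fold and 2.91-fold higher.

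**Figure D2:**
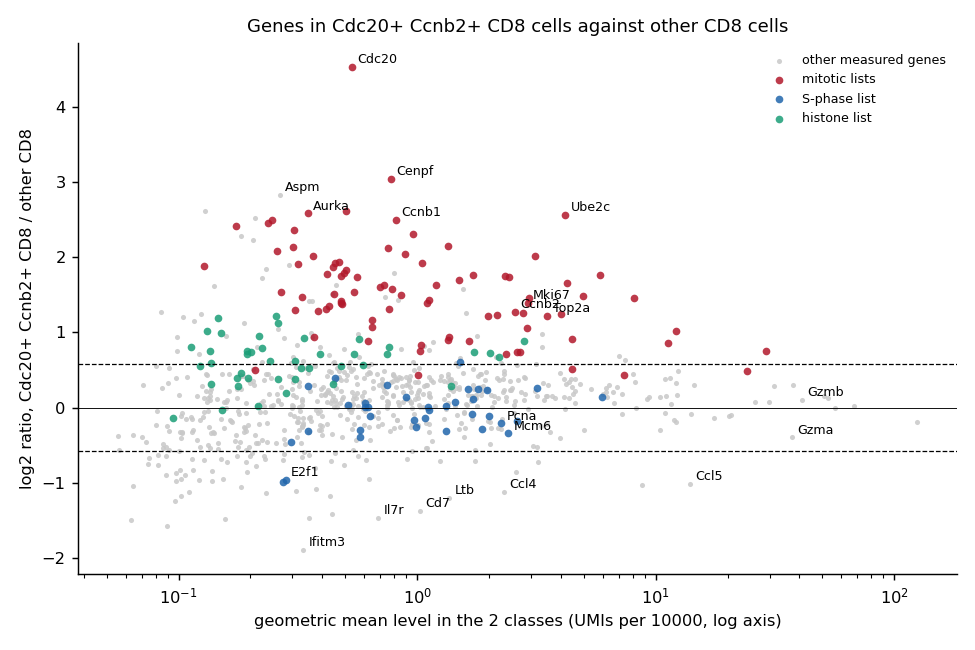
Each point is 1 gene at the minimum, by its level in the 2 classes (x, log axis) and the log2 ratio of Cdc20+ Ccnb2+ CD8 over other CD8 cells (y); dashed lines mark 1.5-fold. Mitotic-list genes fill the upper part, led by the rule gene Cdc20 and by Cenpf, whereas S-phase genes scatter around 0 and Gzmb sits at 0.10.

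The DNA replication list had no common direction against all other CD8 cells: 1 of 36 genes was higher, 2 were lower and the median log2 ratio was -0.02. The gene that was higher was Rrm1, a subunit of ribonucleotide reductase (1.52-fold, and 1.32-fold at equal depth). The lower ones were Ung, the uracil glycosylase of replication repair (0.50-fold, 0.41 to 0.62), and E2f1, the factor of the G1 to S transition (0.51-fold, 0.42 to 0.63). At equal depth 11 were lower, 0 higher, and the median was -0.37. Against the other dividing cells the direction was the same as at equal depth, as given below. Replication-dependent histone genes, whose transcripts are made in S phase, were higher in 25 of 43 at the minimum and lower in 0, with a median of 0.67. Hist1h4d was 2.32-fold and Hist1h2af 2.18-fold higher. The summed histone level was 26.5 UMIs per 10000 in members, 22.6 in other dividing and 3.74 in non-dividing cells. Histone transcripts mostly lack poly(A) tails and the genes are near-identical copies, so single histone genes are uncertain.

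Granzyme B and perforin stood at nearly the same level in members and other CD8 cells. Gzmb, granzyme B, had 42.6 UMIs per 10000 in members, 41.4 in other dividing and 35.8 in non-dividing CD8 cells, and was found in 99.5% of members at 6000 UMIs. In 15 Cd79a-positive cells without Cd4 and Cd8b1, taken as B cells, it had 0.04 UMIs per 10000 and was found in 1 cell. Prf1, perforin, had 2.44 UMIs per 10000 in members and 2.29 in other CD8 cells. Of 18 cytotoxic genes 0 were higher and 4 lower: Klrd1 (0.55-fold, and 0.83-fold at equal depth), Gzmc (0.59-fold and 0.45-fold), Serpina3g (0.62-fold and 0.80-fold) and Klrg1 (0.66-fold and 1.01-fold). In other CD8 cells 1 cell held 54.4% of the Gzmc UMIs, and its shares of cells at 6000 UMIs were 8.67% in members and 9.44% in other CD8 cells. The list's median log2 ratio was -0.25, and 0.00 at equal depth. In Gzma, granzyme A, the level was 32.5 in members, 39.1 in other dividing and 50.9 in non-dividing cells, with 85.1%, 87.1% and 93.1% of cells having a UMI at 6000. Serpinb9, the inhibitor that protects killer cells from granzyme B, went the other way with 3.86, 2.85 and 1.99 UMIs per 10000. For Gzma and Serpinb9 no equal-depth ratio among CD8 cells is given, and depth fell over these classes, from a median of 16149.5 to 8775 UMIs.

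Cytokine and chemokine genes were lower in 4 of 6 at the minimum, with 0 higher and a median log2 ratio of -0.86 (-0.89 at equal depth). Ltb, lymphotoxin beta, had 0.90 UMIs per 10000 in members, 1.59 in other dividing and 3.07 in non-dividing CD8 cells. It was found at 6000 UMIs in 35.0%, 47.8% and 72.3% of cells, and its ratio over all other CD8 cells was 0.44 (0.40 to 0.48; 0.56 at equal depth). Ccl4, a chemokine of activated T cells, was 0.46-fold (0.42 at equal depth) and Ccl3 0.61-fold (0.51). By shares of cells neither reached 1.5-fold: at 6000 UMIs Ccl4 was found in 29.2% of members and 36.6% of other CD8 cells, and Ccl3 in 21.3% and 22.4%. Ccl5 had 9.79 UMIs per 10000 in members, 13.9 in other dividing and 32.6 in non-dividing cells, yet its ratio of 0.50 became 0.90 at equal depth. Ifng, interferon gamma, had 0.47 and 0.64, a ratio of 0.74 that did not reach 1.5-fold, but at equal depth its ratio was 0.52 (0.42 to 0.64).

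Il7r, the receptor chain for the survival cytokine IL-7, was among the genes with the lowest ratios. It had 0.41 UMIs per 10000 in members, 0.86 in other dividing and 1.75 in non-dividing CD8 cells, and was found at 6000 UMIs in 18.5%, 28.7% and 45.4% of cells. Its ratio over all other CD8 cells was 0.36 (0.32 to 0.41) and 0.55 at equal depth. Slfn1, a member of the Schlafen family, was 0.38-fold (0.49 at equal depth) and the surface glycoprotein gene Cd7 0.39-fold (0.67). Tcf7, the gene of TCF-1, was below the minimum, with a UMI in 1.44% of members and 2.95% of other CD8 cells at 6000 UMIs. Pdcd1, the inhibitory receptor PD-1, stood at 2.47 UMIs per 10000 in members and 2.59 in other CD8 cells, and 0 of 8 inhibitory receptor genes were called in either direction. Il2ra, the alpha chain of the IL-2 receptor, had 0.76 and 0.52, a ratio of 1.47 that was 0.73 at equal depth. Pim2, a survival kinase among STAT5 targets, was 0.47-fold (0.41 at equal depth).

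Of 22 genes of MYC and mTORC1 growth 3 were higher, a smaller share than the 20.6% of all genes, namely the amino acid enzymes Psat1 (1.76-fold), Asns (2.05-fold) and Bcat1 (2.23-fold). At equal depth their ratios were 1.33, 1.01 and 1.15, and 0 genes of the list were higher and 5 lower. Members had more UMIs per cell, and how far cell size enters these ratios was not tested. The stress gene Hspa1a, 2.37-fold higher over all cells, was 0.94-fold at equal depth. Of 8 measured genes of G1 and quiescence at the minimum 3 were higher: the CDK inhibitors Cdkn2c (1.98-fold) and Cdkn2d (1.83-fold), and Ccng2 (1.75-fold). These stood at 2.02-fold, 2.32-fold and 2.15-fold at equal depth, where 2 of the 8 genes were lower. In the type I interferon list 4 of 10 genes were lower, Rtp4 with 0.46-fold the lowest, and 0 of 10 were called at equal depth. Ifitm3 and Tgtp2, which are outside that list, stayed lower at equal depth, at 0.27-fold and 0.59-fold.

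Several of the lowest ratios rested on few cells. Ifitm3 had the lowest ratio of the called genes, 0.27 (0.22 to 0.32), followed by H2-DMa (0.34), Rasl11a (0.35), Napsa (0.36) and Ctss (0.36). H2-DMa, Napsa and Ctss are genes of the lysosome and of antigen presentation. One cell held 36.04% of the Napsa UMIs of other CD8 cells, 1 cell 23.9% of their Ctss UMIs and 1 cell 48.0% of their Igfbp7 UMIs. B and plasma cell genes summed to 0.22 UMIs per 10000 in members and 3.75 in other CD8 cells, and myeloid genes to 12.9 and 17.8. Without the 11 members and 9 other CD8 cells that had 2 or more UMIs of a B, myeloid or red cell marker, an alternative chosen after the data were seen, 165 genes were higher and 51 lower. Ifitm3 then had a ratio of 0.43, H2-DMa 0.51, Ctss 0.52, Napsa 0.56 and Igfbp7 0.82, whereas Il7r stayed at 0.35, Slfn1 at 0.38 and Ltb at 0.43.

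**Figure D3:**
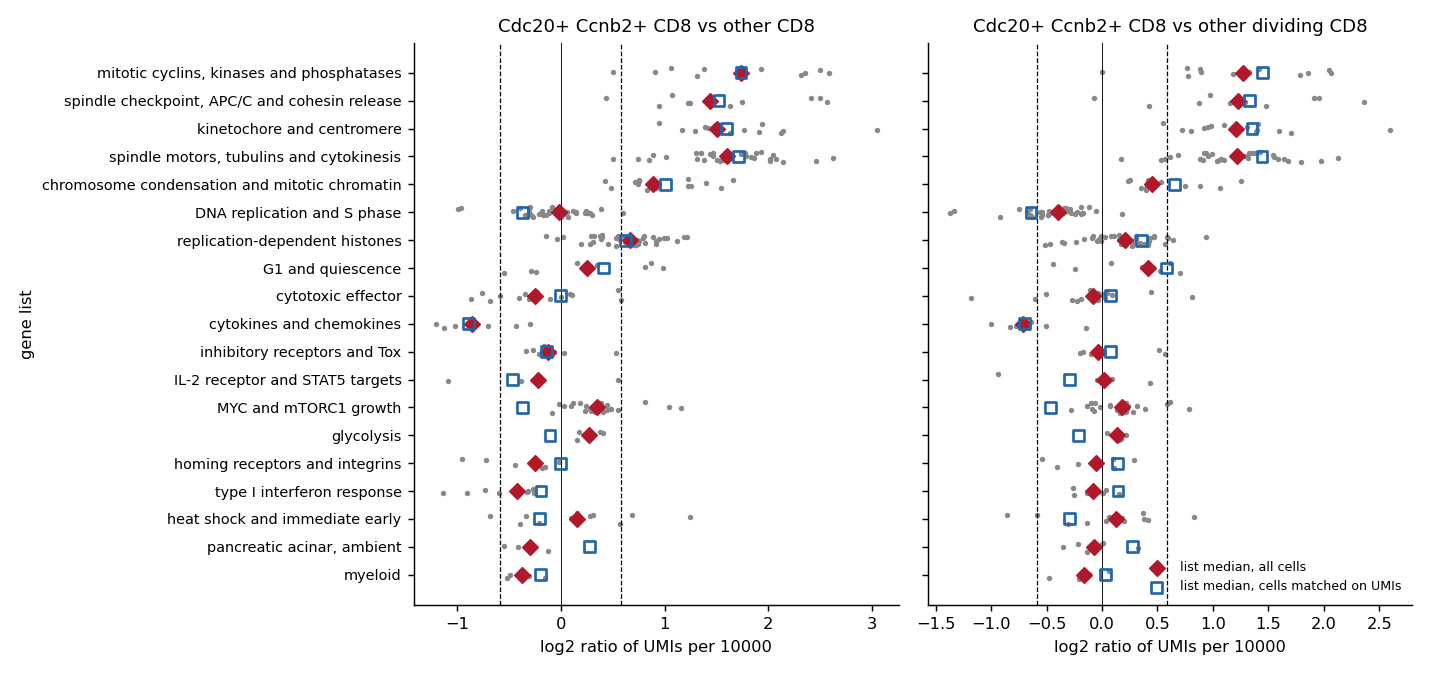
Log2 ratios of single genes (grey points) by gene list, against all other CD8 cells (left) and against other dividing CD8 cells (right), with the list median over all cells (red diamond) and over cells matched on UMIs (blue square); dashed lines mark 1.5-fold. The 5 mitotic lists lie to the right in both panels, and matching on UMIs moved the MYC and mTORC1 list from 0.35 to -0.37 in the left one.

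The comparison with the 226 other dividing CD8 cells asks what set the members apart among cells in cycle. Of 799 genes at the minimum 120 were higher (15%) and 48 lower (6.01%). At equal depth, with 217 cells of each class, 120 were higher (15.1%) and 117 lower (14.7%), which moved the share of higher genes among those called from 71.4% to 50.6%. Of the 82 mitotic genes 66 were higher, 0 lower and 16 neither, with a median log2 ratio of 1.08 (1.29 and 72 higher at equal depth). Cenpf was 6.06-fold higher (4.99 to 7.44), Ube2c 5.13-fold, Aspm 4.88-fold and Aurka 4.17-fold. Of the 16 that were neither, 9 belonged to chromosome condensation and mitotic chromatin, among them Hmgb2, Ncapd2 and H2afz. The replication list was on the other side: 9 of 36 genes were lower and 0 higher, with a median of -0.40, and 21 were lower at equal depth. These 9 were Ung (0.39-fold), E2f1 (0.40-fold), the origin licensing factor Cdc6 (0.53-fold), Cdca7 (0.60-fold), Dtl, Rfc3 and the helicase genes Mcm3, Mcm4 and Mcm6. Pcna, the sliding clamp of DNA polymerase, had 2.10 UMIs per 10000 in members and 3.06 in other dividing cells, a ratio of 0.69 (0.63 to 0.74). Histone genes were mostly neither, with 3 of 43 higher.

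Several immune genes were lower against this class too. Il7r was 0.48-fold (0.65 at equal depth), Ltb 0.56-fold (0.67, short of 1.5-fold), Ccl4 0.50-fold (0.51), Ccl3 0.59-fold (0.53), Ifng 0.64-fold (0.57) and Pim2 0.52-fold (0.48). By shares of cells at 6000 UMIs Ltb, Ccl4, Ccl3, Ifng and Pim2 did not reach 1.5-fold. One cell held 22.7% of the Ccl4 UMIs and 1 cell 59.4% of the Gzmc UMIs of the other dividing cells. Gzmb, at 1.03-fold, and Pdcd1, at 0.93-fold, differed little. Cx3cr1, a chemokine receptor of effector cells, was the only cytotoxic-list gene above 1.5-fold, at 1.75-fold (1.03 to 3.18). In the type I interferon list 0 of 9 genes were called here. Ifitm3, outside that list, again had the lowest ratio, 0.27 (0.22 to 0.33, and 0.33 at equal depth). One cell held 27.7% of its UMIs in the other dividing cells.

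The members varied among themselves along the cycle. They were ordered by how many of 6000 UMIs, drawn at random once per cell, came from Cdc20. Of these cells 169 had 0, 191 had 1, 124 had 2 and 139 had 3 or more. Cdc20 was a rule gene, so the order is a description. The first group was the deepest, with medians of 18167, 15943, 15406.5 and 15637 UMIs. The summed level of the mitotic genes was 246, 280, 303 and 341 UMIs per 10000 over these 4 groups, while that of the replication genes was 58.9, 48.8, 46.4 and 32.4. Ccnb1 stood at 1.32, 1.79, 2.06 and 2.88. Pcna stood at 2.75, 2.11, 2.01 and 1.23. From 0 to 3 or more Cdc20 UMIs, the summed mitotic level was thus higher and the summed replication level lower at each step.

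Between the 2 ends of this order, Cenpf was 2.37-fold higher (2.11 to 2.66), Ube2c 2.34-fold, Kpna2 2.32-fold, Aspm 2.22-fold and Tuba1c 2.06-fold in cells with 3 or more Cdc20 UMIs. Aurka and Plk1 were 1.65-fold and 1.52-fold higher, and Top2a 1.24-fold. Ung was 0.16-fold (0.08 to 0.28), E2f1 0.24-fold (0.13 to 0.42), Pcna 0.45-fold (0.39 to 0.51) and Rrm2, the regulated subunit of ribonucleotide reductase, 0.52-fold. Histones were nearly level, with a summed ratio of 0.92 (0.89 to 0.96). Gzmb had a ratio of 1.03, Prf1 0.96, Gzma 1.04 and Pdcd1 0.97, whereas Ifng was 1.44-fold higher (1.12 to 1.85) at the Cdc20-rich end. Il7r and Ccl5 were 1.80-fold (1.37 to 2.37) and 1.51-fold higher there. Over other CD8 cells, the members' ratio was 0.36 for Il7r and 0.50 for Ccl5. At equal depth these were 0.55 and 0.90, so that Ccl5 was no longer called lower. The ratios between the 2 ends were not computed at equal depth. With 3 or more and with 0 Cdc20 UMIs, Il7r was found at 6000 UMIs in 19.4% and 13.6% of cells. For Ccl5 these shares were 69.1% and 64.5%, and for Ifng 13.7% and 14.2%.

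**Figure D4:**
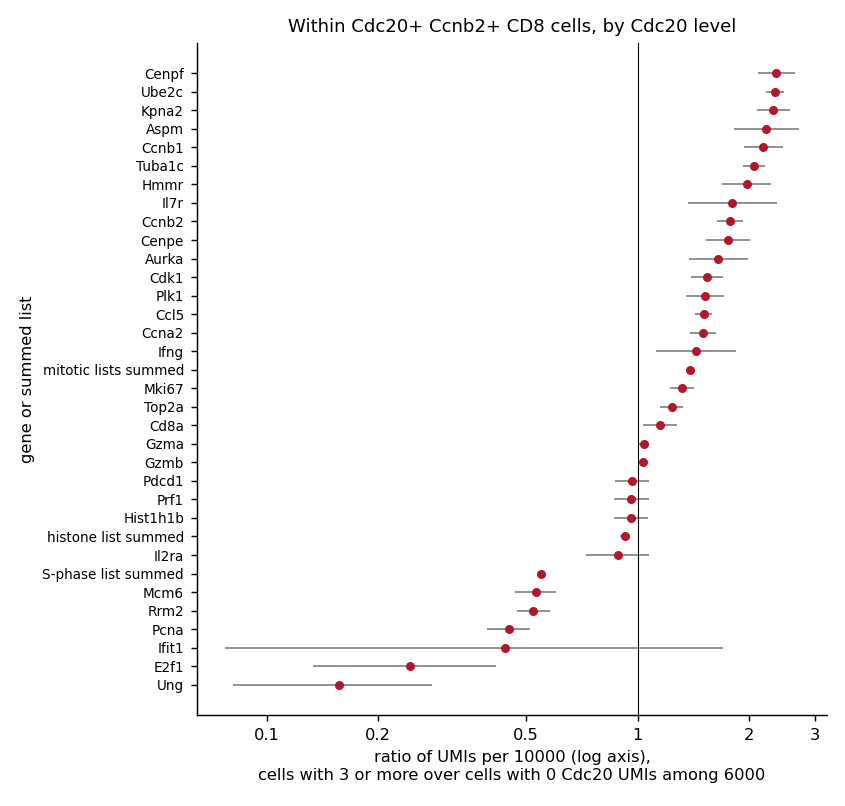
Ratio of UMIs per 10000 (x, log axis) in members with 3 or more over members with 0 Cdc20 UMIs among 6000, for named genes and 3 summed lists (y); bars are 95% exact Poisson intervals. Mitotic genes lie to the right of 1, Gzmb, Prf1 and Pdcd1 near 1, and Pcna, E2f1 and Ung to the left.

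The 135 CD4 cells that passed the same Cdc20 and Ccnb2 rule were set beside the members to compare the lineages at the same cycle markers. Depth was close, with a median of 15350 UMIs. Of 807 genes 77 were higher in the CD8 members (9.54%) and 120 lower (14.9%), and with 135 cells of each class at equal depth 87 were higher (10.7%) and 124 lower (15.2%). The mitotic genes were within 1.5-fold in 81 of 82, with a median log2 ratio of -0.23. The exception was Ect2, the activator of cytokinesis, at 0.65-fold (0.55 to 0.76), which was 0.72-fold and not called at equal depth. Cdc20 had 2.57 and 2.68 UMIs per 10000, and Ccnb2 3.99 and 3.93. Aurka had 0.85 in members and 1.07 in CD4 cells, a ratio of 0.80 that was 0.61 (0.49 to 0.75) and called lower at equal depth. The replication genes had 0 of 36 called. Histone genes differed: 25 of 44 were lower in the CD8 members and 0 higher, with a median of -0.64 and summed levels of 26.5 and 37.4 UMIs per 10000. Hist1h4n was 0.43-fold and Hist1h3h 0.44-fold, and 19 of 44 were lower at equal depth. Of 8 genes of G1 and quiescence 3 were lower and 0 higher (4 lower at equal depth). Cdkn2c was 0.48-fold and Cdkn1a, the inhibitor p21, 0.36-fold.

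The cytotoxic list separated the lineages, with 12 of 18 genes higher in the CD8 members and 1 lower. Gzma had 32.5 UMIs per 10000 in members and 3.20 in the CD4 cells, 10.2-fold (9.45 to 10.96). Prf1 was 6.26-fold, Klrd1 5.45-fold and Gzmb 2.20-fold higher. Klrk1, the activating receptor NKG2D, was 17.99-fold higher (11.4 to 30.4), with a UMI at 6000 in 46.9% of members and 3.76% of CD4 cells. Cd160 was 15.7-fold higher, found in 56.3% and 4.51%. Crtam, with the highest ratio of those not at 0 in CD4 cells, rested on 1 UMI there (38.9-fold, 6.89 to 1542). Itgax, the integrin CD11c, was 8.51-fold and Eomes, a transcription factor of effector CD8 cells, 3.18-fold higher. Pdcd1 was 2.02-fold and Lag3 1.89-fold higher, while Ctla4 was 0.46-fold and Cd200 0.27-fold.

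In the other direction, all 5 genes of the CD4 helper and regulatory list at the minimum were lower. Cd40lg, the helper ligand, had 0.01 UMIs per 10000 in members and 0.91 in the CD4 cells, and was found at 6000 UMIs in 0.482% and 38.3% of cells. Maf was 0.09-fold (0.08 to 0.12), Tnfrsf4, the receptor OX40, 0.24-fold and Il21 0.07-fold. Ifng was 0.54-fold, Tnf 0.32-fold and Il12rb2 0.37-fold, whereas Ccl5 was 2.64-fold higher in the CD8 members. Of 12 heat shock and immediate early genes 4 were lower in members, 1 higher and 7 neither. The lower ones were Fos (0.35-fold), Nr4a1 (0.32-fold), Dusp1 (0.40-fold) and Egr1 (0.53-fold), and the higher one was Nr4a2, at 2.32-fold (1.70 to 3.25). The interferon gene Ifi27l2a was 0.22-fold, found in 37.7% of members and 93.2% of the CD4 cells at 6000 UMIs. Cd74, at 0.09-fold, had 71.9% of its CD4-cell UMIs in 1 cell.

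**Figure D5:**
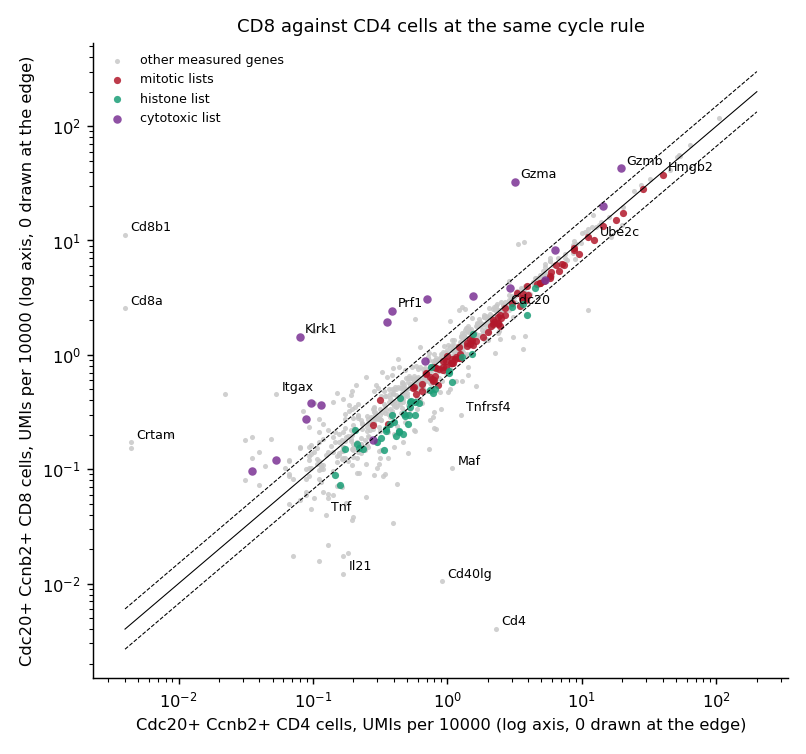
Level of each gene in Cdc20+ Ccnb2+ CD4 cells (x) and Cdc20+ Ccnb2+ CD8 cells (y), in UMIs per 10000 on log axes; the solid line is equality and dashed lines mark 1.5-fold. Mitotic genes follow the line, histone genes lie below it (25 of 44 by 1.5-fold or more), and Gzma, Prf1 and Klrk1 lie above it.

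Beyond the promoters printed above, the CHR was counted in the RefSeq promoters of the genes called against all other CD8 cells (250 bases before to 50 after the start). Of 166 genes called higher 136 had an entry, with 157 promoters in all. A CHR was in 53.5% of these (84 of 157), against 19.2% of all 32851 promoters of the table and 19.4% of those of the measured genes. In the called genes of the mitotic lists the share was 71.6% (53 of 74), and in the other genes called higher 37.3% (31 of 83). In the genes called lower it was 15.5% (9 of 58). A CCAAT box was in 72.6% of promoters of genes called higher, 37.4% of all and 39.7% of those of genes called lower. Both motifs stood together in 45.2%, 7.52% and 3.45%. The CCAAT share was 75.7% in the called genes of the mitotic lists and 69.9% in the other genes called higher. Each motif was searched on its own, a base may belong to both, and a match describes letters, not a binding site.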

How the data were processed

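The deposited files hold 2000 genes per cell as natural log values. Per the submitters' processing notes the authors used mm10, Cell Ranger 3.1.0 and a version of Seurat that is not stated, and per the labels' protocols a droplet 5′ kit. The tacrolimus values equalled the natural log of 1 plus UMIs scaled to 50000 per cell, and 100% of them returned whole UMIs (tolerance 0.001). The design had foreseen counts. The 2000 genes held 18.3% of the UMIs. Of anti-IL-2 values 13.9% were below 0. The tacrolimus file repeated 308 anti-IL-2 cells, which were left out, and the libraries shared 4 barcodes. The minimum of 200 genes left out 213 tacrolimus cells. Scrublet in scanpy 1.11.5 called 3 cells (2 members), which were kept. UMIs were summed per class with numpy 2.4.6 and pandas 2.3.3, and intervals came from scipy 1.17.1 (95% exact conditional Poisson for ratios, Clopper-Pearson for shares; a count of 0 was bounded at 3 counts). Thinning used 1 seed. The steps were tested on simulated Poisson counts, in which cells differed only in depth and class. Equal depth means pairs within 10% in UMIs. Genes were named as the 12 highest and 12 lowest called per comparison, the rule genes and markers, up to 4 at each end of a list, and Tcf7, Il2ra, Gzmb, Ifng, Pdcd1, Mki67, Top2a, Pcna and Cd8a. Levels of list genes outside these, such as Ccna2, Bub1b, Gzma and Serpinb9 among CD8 classes, were chosen after their values were seen. The members and gene lists were chosen with earlier results of these data known. Other settings were 10 planned ones and 1 added later. T-cell receptor reads were not analysed here.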

Additional observations from a re-analysis of the deposited data

How the results depend on the processing

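The library is 1 per treatment, so leaving out a replicate or a paired fit could not be done. No paired analysis was possible because the result comes from no test and each treatment has 1 library. The share of members among CD8 cells was 43.2% with cells thinned to 6000 UMIs before the rule, 50.4% with 2 or more UMIs of Cdc20 and Ccnb2, and 73.8% with at least 300 genes. Genes lower against other CD8 cells numbered 106 under scaling by the median of ratios and 184 with a minimum of 1% of cells. Against other dividing CD8 cells 117 were lower at equal depth and 119 at the 1% minimum, and against CD4 cells 148 were higher and 200 lower at that minimum. Median log2 ratios of the cyclin and kinase list were 1.36 by shares of cells, 1.95 in thinned sums, 1.57 by median of ratios and 1.45 with at least 300 genes. For the checkpoint list they were 1.08 by shares and 1.27 by median of ratios, and for the kinetochore list 1.82 in thinned sums, 1.34 by median of ratios and 1.35 with at least 300 genes. For chromosome condensation they were 1.02 as means over cells, 1.01 at equal depth, 1.06 in thinned sums and 0.59 with at least 300 genes. For cytokines and chemokines they were -0.25 by shares, -1.03 by median of ratios, -0.69 at the 1% minimum and -0.72 with at least 300 genes. In the 150 bases before the start, 27.4% of promoters of genes called higher held a CHR and 63.7% a CCAAT box. In that window the shares were 9.70% and 24.5% of all promoters, and 9.80% and 29.8% of those of measured genes. Among named genes past 1.5-fold the log2 ratio changed sign in 8 results. Against other CD8 cells Hspa1a had -0.089, Isg15 0.082 and Klrg1 0.0082 at equal depth, and Igfbp7 0.66 by shares. Against other dividing cells Asns had -0.15 and Hspa1a -0.43 at equal depth. Against CD4 cells Myc had 0.16 by shares and Rtp4 0.15 with 2 or more UMIs. The causes were not tested.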
